A study of Mus musculus with 8 samples.

Results

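The collagen genes of mouse liver were taken as all 44 symbols of the count table that consist of Col, a type number, the letter a and a chain number, out of 24421 symbols. They comprised 11 genes of fibrillar collagens, 8 of basement membrane collagens and 25 others. Livers labelled CAPZ_KO came from C57BL/6N mice carrying Albumin-CreERT2 and floxed alleles of Capzb (Capzb-fl/fl), in which tamoxifen had been injected on consecutive days from an age of 4 to 6 weeks. Albumin-CreERT2 is a tamoxifen-activated Cre recombinase driven by the albumin promoter, which is active in hepatocytes, so the other cells of the liver are not its intended target. Livers labelled WT carried Capzb-fl/fl as well. By the series' design text they either lacked Cre and received tamoxifen, or had Albumin-CreERT2 and no injection. The kind of each WT library is not given, and the protocol on every sample speaks of injected mice. Tamoxifen exposure and the deletion can therefore not be told apart in any comparison below. All mice were adults of 8 to 10 weeks of age, and each group had 4 libraries. Whether the libraries of a group came from different animals is not in the labels, so p-values here speak only of the spread among libraries, which may be technical. The labels do not state the sex of the mice.

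Collagens are secreted matrix proteins whose chains are hydroxylated, wound into a helix in the endoplasmic reticulum, trimmed and then crosslinked outside the cell. Fibrillar collagens, chiefly types I and III, form the tensile fibres of the portal tracts and of scar. Type IV collagen forms the sheet of basement membranes, and the multiplexins, types XV and XVIII, are attached to such sheets. In liver, stellate cells and portal fibroblasts are the main known source of fibrillar collagen, endothelial and stellate cells make type IV, and hepatocytes are a known source of type XVIII.

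Libraries held 12060350 to 18916315 counts each (WT) and 13122355 to 16984971 (CAPZ_KO). Capzb, the gene of the capping protein beta subunit, stood at 120.2 ± 13.4 CPM (SD, n = 4) in WT and 72.5 ± 6.80 in CAPZ_KO, where CPM are counts relative to the library total after TMM scaling, which corrects that total for genes that take unequal shares of it. After TMM scaling Capzb was thus lower, by edgeR, with an adjusted p of 0.00134 and a log2 fold change of −0.73 ± 0.125 (SE). Its raw counts were 1302, 1662, 1659 and 1756 in WT 1 to 4 and 1541, 1598, 1067 and 1494 in CAPZ_KO 1 to 4. The fold change depends on the scaling. Library sizes alone moved the median of all genes up by 0.625 on the log2 scale, nearly the size of the Capzb change. The libraries held liver RNA, with 8 hepatocyte markers summing to 169077 to 215332 CPM in WT and to 38565 to 58932 CPM in CAPZ_KO. Of these 8 markers, 7 were lower in CAPZ_KO and 0 higher at an edgeR adjusted p under 0.05, beside 19.0% lower and 22.4% higher over all 12985 genes tested. In whole liver, fewer cells of a type and less RNA per cell cannot be told apart.

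Most of the measurable collagen genes were higher in CAPZ_KO. Of the 44 genes, 25 had enough counts to be tested, and 14 of these were higher and 1, Col18a1, was lower at an edgeR adjusted p under 0.05. Over all 12985 genes tested, 22.4% were higher and 19.0% lower by the same rule, 41.4% in all. Called higher by at least 2-fold were 14 of the 25 tested collagen genes, against 14.1% of all genes tested. The log2 fold changes of the 14 ranged from 1.35 to 3.13, with adjusted p of 2.43e-05 to 0.0071. In the same 14 of the 25 the lowest CAPZ_KO library lay above the highest WT library, against 22.1% of all genes tested. Over all genes, 40.3% had groups that did not overlap in either direction. The count of 14 apart uses the same values as the call and is no separate support for it. The 19 untested genes included 4 without a count in any library, Col2a1, Col10a1, Col19a1 and Col26a1, and 15 with totals of 3 to 69 counts over the 8 libraries. Tested genes had a median log2 fold change of 1.48, beside −0.003 over all genes, and 1 of the 14, Col8a1, passed the minimum count through its CAPZ_KO libraries only.

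**Figure D1:**
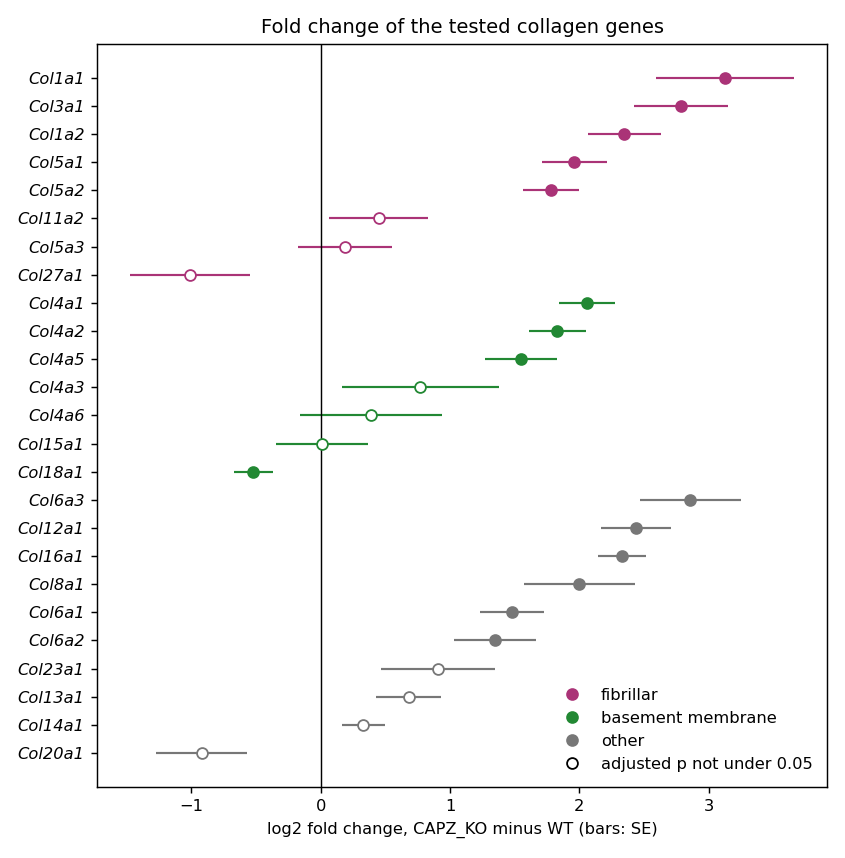
Log2 fold change of CAPZ_KO against WT for the 25 tested collagen genes, grouped as fibrillar, basement membrane and other; bars give the SE and open points did not reach an adjusted p under 0.05. Among filled points, 14 lie to the right of 0 and Col18a1 alone lies to the left, at −0.52.

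Among fibrillar collagens, the genes of types I and III and of the main type V chains rose together. These were 5 of the 8 tested, beside 22.4% higher of all genes tested. Of the 11 fibrillar genes, 3 more were tested and not called, and 3 were untested. Col3a1, the single chain of type III collagen (chromosome 1, 45311538 to 45349706, plus strand, GRCm38), held 57.5, 49.7, 28.1 and 33.8 CPM in WT libraries 1 to 4 and 472.7, 169.4, 325.2 and 200.1 CPM in CAPZ_KO libraries 1 to 4. No CAPZ_KO library came near the WT range, and the log2 fold change was 2.79 ± 0.364 (SE; adjusted p = 0.000351, edgeR).

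Col1a1, the alpha 1 chain of type I collagen (chromosome 11, 94936224 to 94953042, plus strand), held 17.7, 5.73, 3.83 and 5.71 CPM in WT and 115.4, 37.8, 73.2 and 55.4 CPM in CAPZ_KO. WT 1 stood above the other WT libraries. The log2 fold change was 3.13 ± 0.533 (SE; adjusted p = 0.00188, edgeR), and 3.78 without WT 1. Col1a2, the partner alpha 2 chain (chromosome 6, 4504814 to 4541544, plus strand), held 25.7, 20.1, 11.7 and 14.5 CPM in WT and 131.7, 66.0, 88.3 and 80.5 CPM in CAPZ_KO. It rose by 2.35 ± 0.284 (SE, adjusted p = 0.000205), and WT 1 and CAPZ_KO 1 were again the highest of their groups.

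Type V collagen is built into type I fibrils and sets their diameter. Col5a1 held 9.65, 8.16, 6.25 and 5.06 CPM in WT and 40.7, 24.5, 24.1 and 22.9 CPM in CAPZ_KO, a log2 fold change of 1.96 ± 0.251 (SE; adjusted p = 0.000266, edgeR). Col5a2 held 10.1, 7.24, 5.61 and 10.3 CPM in WT and 34.7, 23.5, 30.1 and 25.5 CPM in CAPZ_KO, a log2 fold change of 1.78 ± 0.215 (SE, adjusted p = 0.00019). For both genes every CAPZ_KO library lay above every WT library. The third chain gene, Col5a3, did not follow within its error, with 9.69 ± 5.25 CPM (SD, n = 4) in the WT and 11.0 ± 2.62 CPM in the CAPZ_KO libraries, a log2 fold change of 0.19 ± 0.364 (SE, adjusted p = 0.703).

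The remaining fibrillar genes belong to types best known from cartilage and other tissues. Col27a1 held 5.79, 3.69, 21.4 and 10.0 CPM in WT and 5.81, 5.43, 4.35 and 4.70 CPM in CAPZ_KO. The groups overlapped, WT 3 was the highest library, and the log2 fold change was −1.01 ± 0.462 (SE; adjusted p = 0.106, edgeR). The value rested largely on WT 3, without which it was −0.37 (adjusted p = 0.393). It was −1.30 without WT 2 with an adjusted p of 0.025, and −1.03 by DESeq2 with 0.0488. Col11a2 had a log2 fold change of 0.45 ± 0.384 (SE, adjusted p = 0.377). Col11a1, with 3 counts in all, Col24a1, with 50, and Col2a1, with none, were not tested.

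**Figure D2:**
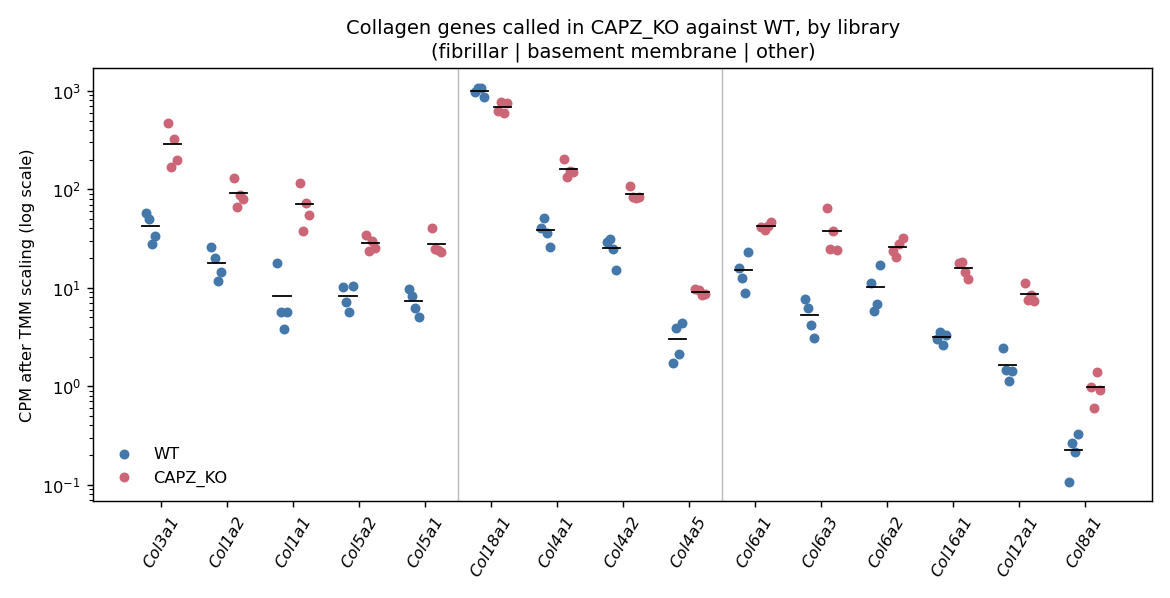
CPM after TMM scaling (log axis) of the 15 collagen genes called in CAPZ_KO against WT, 1 point per library with a line at the group mean, in blocks of fibrillar, basement membrane and other collagens. The 4 CAPZ_KO points lie above the 4 WT points for 14 genes and below them for Col18a1.

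Of the 6 type IV collagen genes 5 were tested and 3 of these rose, beside 22.4% higher of all genes tested. The other 2 tested were not called, and 1 was untested. Col4a1 and Col4a2, the chains of the ubiquitous type IV network, lie head to head on chromosome 8 (Col4a1 from 11198423 to 11312826, minus strand, and Col4a2 from 11312805 to 11449287, plus strand, GRCm38), and their annotated first exons overlap by 22 bases. Their promoters are printed here because the genes share the stretch from which both are transcribed and were both called higher, and that of Col1a2 because it is the type I chain gene with an entry. They are the 300-base windows of RefSeq on GRCm38.p6, covering 250 bases before and 50 after the RefSeq start of the gene, 5′ to 3′ on the strand of the gene. Capitals mark CCAAT and GGGCGG on either strand (the CCAAT box and the GC box). The windows are chr8:11312777-11313076 (minus strand), chr8:11312555-11312854 (plus strand) and chr6:4505368-4505667 (plus strand), in this order.
Col4a1: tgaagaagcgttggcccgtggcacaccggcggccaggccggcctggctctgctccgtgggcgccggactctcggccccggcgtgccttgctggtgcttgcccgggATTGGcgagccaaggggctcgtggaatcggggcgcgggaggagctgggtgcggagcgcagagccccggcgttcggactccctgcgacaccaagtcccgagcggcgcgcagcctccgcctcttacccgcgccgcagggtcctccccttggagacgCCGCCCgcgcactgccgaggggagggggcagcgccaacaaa
Col4a2: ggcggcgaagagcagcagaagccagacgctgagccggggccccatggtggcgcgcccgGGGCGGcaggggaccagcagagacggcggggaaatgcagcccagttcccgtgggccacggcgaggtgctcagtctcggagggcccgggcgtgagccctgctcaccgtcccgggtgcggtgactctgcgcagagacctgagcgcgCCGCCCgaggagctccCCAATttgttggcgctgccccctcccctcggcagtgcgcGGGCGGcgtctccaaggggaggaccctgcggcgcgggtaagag
Col1a2: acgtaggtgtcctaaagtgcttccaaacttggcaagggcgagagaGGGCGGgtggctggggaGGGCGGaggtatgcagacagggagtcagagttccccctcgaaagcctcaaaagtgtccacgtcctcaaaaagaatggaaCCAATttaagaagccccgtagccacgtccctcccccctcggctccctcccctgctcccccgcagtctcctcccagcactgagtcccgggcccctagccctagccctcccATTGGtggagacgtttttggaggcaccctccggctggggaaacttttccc
The Col4a1 window held 1 CCAAT and 1 GC box, the Col4a2 window 1 and 3, and the Col1a2 window 2 and 2. The Col4a1 and Col4a2 windows overlap, and the GC box of Col4a1 is the same site as 1 of the 3 of Col4a2, read on the other strand. Of 44 collagen genes, 35 had a promoter in that table, in 38 windows. A CCAAT box was found in 34.2% of those windows and in 37.4% of all 32851 windows of the same length, and a GC box in 60.5% against 35.7%. GGAATG, the core bound by the TEAD factors, was found on either strand in 13.2% of collagen windows and in 14.7% of all. It lay in windows of Col3a1 and Col6a2, called higher, of Col18a1, called lower, and of Col4a6 and Col20a1, not called. The AP-1 site TGANTCA was found in 2.63% of collagen windows against 7.81% of all. The TATA box was found in 13.2% against 13.6%, and the SMAD site GTCTAGAC in 0% against 0.213%. The CArG box, bound by SRF, was found in 2.63% against 1.63%, and in 0 of the 11 higher genes with a window. These matches describe letters in a window and do not show binding.

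Col4a1 held 40.0, 51.7, 36.3 and 26.0 CPM in WT and 202.5, 135.0, 153.7 and 150.1 CPM in CAPZ_KO. Its log2 fold change was 2.06 ± 0.214 (SE; adjusted p = 8.58e-05, edgeR). Col4a2 held 29.4, 31.5, 24.6 and 15 CPM in WT and 108.7, 82.6, 81.0 and 83.7 CPM in CAPZ_KO, a log2 fold change of 1.83 ± 0.220 (SE, adjusted p = 0.000187). WT 4 was the lowest and CAPZ_KO 1 the highest library for both genes. Col4a5, an X-linked chain of the type IV networks of kidney and other tissues, held 1.72, 3.88, 2.13 and 4.41 CPM in WT and 9.69, 9.42, 8.35 and 8.64 CPM in CAPZ_KO, a log2 fold change of 1.55 ± 0.280 (SE, adjusted p = 0.00178).

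The partners of the other head-to-head pairs were scarce. Col4a6, next to Col4a5 on chromosome X with starts 1309 bases apart, had a log2 fold change of 0.39 ± 0.551 (SE; adjusted p = 0.596, edgeR) at 0.488 ± 0.391 CPM (SD, n = 4) in WT. Col4a3 had 0.77 ± 0.606 (SE, adjusted p = 0.331), and Col4a4, whose start lies 72 bases from that of Col4a3, was not tested, with 21 counts over the WT and 48 over the CAPZ_KO libraries. For Col4a3 and Col4a6, as for Col11a2 and Col23a1, fewer than 4 WT libraries reached the minimum count.

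The multiplexins did otherwise. Col18a1 (chromosome 10, 77052178 to 77166548, minus strand), whose carboxy-terminal fragment is endostatin, held 964.3, 1074, 1064 and 869.6 CPM in WT and 626.0, 780.1, 603.1 and 762.0 CPM in CAPZ_KO. Every CAPZ_KO library lay below every WT library, and the log2 fold change was −0.52 ± 0.151 (SE; adjusted p = 0.0196, edgeR). The call did not hold under every scaling or without each library. Scaled by library sizes alone, which moved the median of all genes by 0.625, Col18a1 had a log2 fold change of 0.10 (adjusted p = 0.504). Its adjusted p was 0.05, 0.0535 and 0.0574 without WT 2, WT 3 and CAPZ_KO 3. Col15a1 held 10.8 ± 4.70 CPM (SD, n = 4) in the WT and 10.8 ± 4.34 CPM in the CAPZ_KO libraries, a log2 fold change of 0.01 ± 0.354 (SE, adjusted p = 0.979), with WT 1 and 3 and CAPZ_KO 1 and 3 high in their groups.

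Of the 25 other collagens, 10 were tested and 6 of these rose, beside 22.4% higher of all genes tested. The other 4 tested were not called, and 15 were not tested. Type VI collagen forms beaded microfilaments around cells from chains of Col6a1, Col6a2 and most often Col6a3, and all of these rose. Col6a1 held 16.0, 12.7, 8.80 and 23.1 CPM in WT and 41.0, 38.2, 42.3 and 46.9 CPM in CAPZ_KO, a log2 fold change of 1.48 ± 0.250 (SE; adjusted p = 0.00127, edgeR). Col6a2 held 11.3, 5.79, 6.88 and 17.1 CPM in WT and 23.7, 20.6, 28.1 and 32.1 CPM in CAPZ_KO, a log2 fold change of 1.35 ± 0.315 (SE, adjusted p = 0.0071). Both were highest in library 4 of either group.

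Col6a3 held 7.72, 6.19, 4.19 and 3.05 CPM in WT and 64.4, 25.0, 38 and 24.0 CPM in CAPZ_KO. Its log2 fold change was 2.86 ± 0.393 (SE; adjusted p = 0.000474, edgeR). Here WT 4 was the lowest WT library, where Col6a1 and Col6a2 were highest. The other chain genes, Col6a4, Col6a5 and Col6a6, had 6, 40 and 25 counts in all and were not tested.

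FACIT collagens sit on the surface of fibrils. Col12a1 held 2.47, 1.45, 1.14 and 1.43 CPM in WT and 11.1, 7.57, 8.47 and 7.41 CPM in CAPZ_KO, a log2 fold change of 2.44 ± 0.268 (SE; adjusted p = 0.000114, edgeR). Col16a1 held 3.0, 3.55, 2.63 and 3.31 CPM in WT and 17.8, 18.4, 14.5 and 12.3 CPM in CAPZ_KO, a log2 fold change of 2.33 ± 0.188 (SE), with the smallest adjusted p of any collagen gene, 2.43e-05. Neither gene had a library near the other group.

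Col14a1, the most abundant FACIT, held 57.0, 81.0, 57.6 and 64.4 CPM in WT and 105.4, 73.1, 72.3 and 75 CPM in CAPZ_KO. The groups overlapped and the log2 fold change was 0.33 ± 0.168 (SE; adjusted p = 0.144, edgeR). Scaled by library sizes alone it was 0.96 (adjusted p = 0.00161). Col20a1 had a log2 fold change of −0.92 ± 0.351 (SE, adjusted p = 0.0576), with every WT library above every CAPZ_KO library. Together with Col18a1 that made 2 tested collagens with WT above, against 18.2% of all genes.

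Among the rest, Col8a1, a short-chain collagen of network type, held 0.107, 0.263, 0.213 and 0.324 CPM in WT and 0.991, 0.598, 1.39 and 0.920 CPM in CAPZ_KO. That is 13 counts over the WT libraries and 75 over the CAPZ_KO libraries, and a log2 fold change of 2.0 ± 0.428 (SE; adjusted p = 0.00435, edgeR). The transmembrane collagens were not called. Col13a1, a collagen of cell surfaces, held 3.86, 7.90, 6.17 and 7.0 CPM in WT and 7.57, 8.82, 10.1 and 13.8 CPM in CAPZ_KO, a log2 fold change of 0.68 ± 0.253 (SE, adjusted p = 0.0534). It lay at the threshold, with 0.0455 without WT 2, 0.0446 without CAPZ_KO 1, 0.0324 by upper quartile scaling, 0.0362 by DESeq2, and 0.0246 with the replicate number as a block. Without any other single library the adjusted p of Col13a1 was over 0.05, from 0.0665 (without WT 4) to 0.154 (without CAPZ_KO 4). Col23a1 had 0.91 ± 0.442 (SE, adjusted p = 0.124), and 1.42 without WT 4 (adjusted p = 0.0313). Without any other single library its adjusted p was 0.135 (without WT 1) to 0.279 (without WT 2). Besides the genes already named, Col7a1, Col8a2, Col9a1, Col9a2, Col9a3, Col17a1, Col22a1, Col25a1 and Col28a1 had too few counts to be tested.

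Levels of different genes were compared per kilobase of merged exon. In WT, Col18a1 stood highest by a wide margin, at 141.4 ± 13.7 CPM per kb (SD, n = 4). Then came Col14a1 at 9.26 ± 1.60, Col4a1 at 5.16 ± 1.42, Col3a1 at 4.31 ± 1.39, Col4a2 at 3.80 ± 1.10 and Col6a1 at 3.46 ± 1.38. From Col4a1 down to Col6a1, each differed from the next by less than its SD, while Col14a1 lay above Col4a1 by more than either SD. In CAPZ_KO, Col18a1 was still highest at 98.7 ± 13 CPM per kb. It was followed by Col3a1 at 29.7 ± 14.1, Col4a1 at 21.5 ± 3.92, Col4a2 at 13.5 ± 1.99, Col14a1 at 11.6 ± 2.29 and Col1a1 at 10.7 ± 5.07. Neighbours from Col4a2 to Col1a1 were within their SD of each other. The length used bears on this order, since the merged exons of Col1a2 span 12426 bases and its longest transcript 5348. Per kilobase of the longest transcript Col1a2 stood at 17.1 ± 5.28 in CAPZ_KO, the fourth place, against 7.37 ± 2.27 and the eighth place.

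The makeup of collagen RNA differed with these changes. Col18a1 made up 74.3%, 77.1%, 80.4% and 76.7% of all collagen CPM in the WT libraries and 30.5%, 50.2%, 36.9% and 46.7% in the CAPZ_KO libraries. These shares are ratios within a library and do not depend on scaling, and the groups did not overlap. A share also falls where the other collagens rise, and without Col18a1 these went from 294.0 to 1026 CPM. The lower share therefore does not by itself show less Col18a1. The fibrillar genes took 8.16% ± 1.76 in WT and 30.0% ± 8.29 in CAPZ_KO (SD, n = 4), and type IV genes 5.26% ± 0.939 and 15.2% ± 0.374. Type IV shares were nearly equal over the CAPZ_KO libraries, from 14.9% to 15.7%, while fibrillar shares ran from 21.8% to 39.7%. Summed over all 44 genes, collagen CPM were 1287 ± 109.6 in WT and 1719 ± 227.6 in CAPZ_KO (SD, n = 4), and without Col18a1 they were 294.0 ± 37.9 and 1026 ± 289.2.

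**Figure D3:**
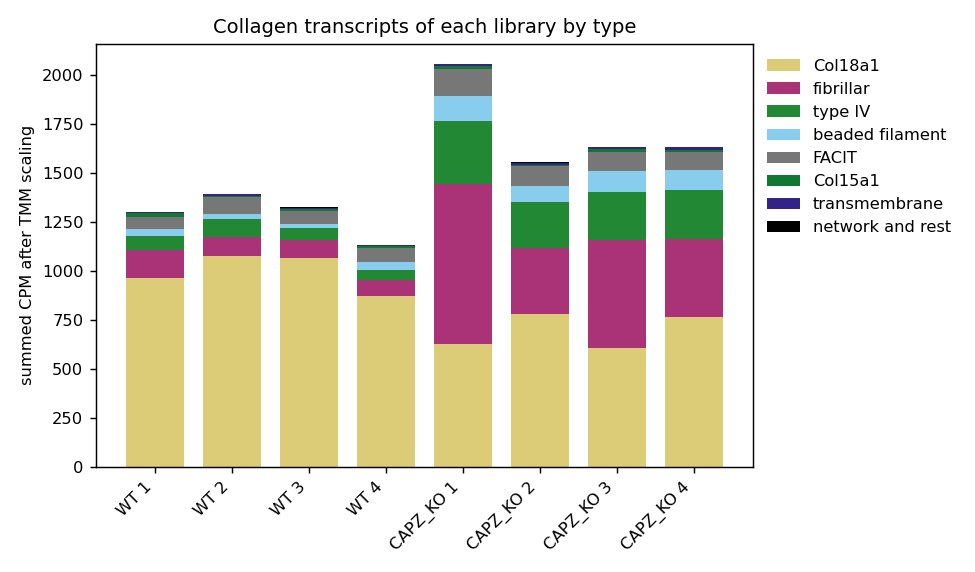
Summed CPM after TMM scaling of the collagen genes in each library, stacked by type, with Col18a1 and Col15a1 shown apart. Col18a1 fills 74.3% to 80.4% of each WT bar and 30.5% to 50.2% of each CAPZ_KO bar, and fibrillar genes reach 816.3 CPM in CAPZ_KO 1.

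CAPZ_KO 1 was the highest library of its group for 10 of the 14 higher genes. Its fibrillar sum was 816.3 CPM, against 338.5, 553.9 and 401.7 CPM in CAPZ_KO 2 to 4. Without CAPZ_KO 1 those 14 genes and Col13a1 were called higher, and Col1a1 had a log2 fold change of 2.75 and Col3a1 of 2.42. Stellate cell and fibroblast markers that are not collagens were also highest there, with a sum of 437.8 CPM against 324.8, 302.9 and 310.9 CPM.

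Ratios of collagen counts within a library, which no scaling can alter, were compared for 9 pairs by exact two-sided permutation tests. With 4 against 4 libraries the smallest p is 0.0286 over 70 arrangements, and 0 of 9 ratios passed after adjustment over the 9. Ratios at that smallest p had an adjusted p of 0.129. The test could pass a ratio only if many of the 9 reached the smallest p together, so the count of 0 says little. Col18a1 to Col4a1 had ratios of 24.1, 20.8, 29.3 and 33.4 in WT and 3.09, 5.78, 3.92 and 5.08 in CAPZ_KO, a log2 difference of −2.61 (exact p = 0.0286, adjusted 0.129). The groups were far apart and the test was at its limit.

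Col6a3 to Col6a1 had ratios of 0.485, 0.488, 0.478 and 0.133 in WT and 1.57, 0.654, 0.899 and 0.511 in CAPZ_KO, a log2 difference of 1.24 (exact permutation p = 0.0286, adjusted 0.129). Without WT 4 the difference was 0.78. The groups did not overlap, but the lowest CAPZ_KO ratio, 0.511, lay close to the highest WT ratio, 0.488. The ratio of the type IV partner chains Col4a1 to Col4a2 was at 1.55 ± 0.165 in WT and 1.80 ± 0.116 in CAPZ_KO (SD; exact permutation p = 0.0857 with n = 4 per group, adjusted 0.154).

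Of the type I chains, Col1a1 to Col1a2 stood at 0.688, 0.286, 0.329 and 0.396 in WT and 0.876, 0.573, 0.830 and 0.688 in CAPZ_KO, a log2 difference of 0.87 (exact permutation p = 0.0857, adjusted 0.154). WT 1 lay within the CAPZ_KO range and the other WT libraries below it. Col3a1 to Col1a1, Col4a1 to Col1a1 and Col4a5 to Col4a6 had log2 differences of −0.51, −1.15 and 1.07, with exact permutation p of 0.171, 0.0857 and 0.257 and adjusted p of 0.257, 0.154 and 0.331. Single libraries moved some of them. Col4a5 to Col4a6 was at 0.41 without WT 1, and Col3a1 to Col1a1 at −0.79 without WT 1 and at −0.32 without WT 2. Col5a1 to Col5a2 had ratios of 0.922 ± 0.297 in WT and 0.978 ± 0.163 in CAPZ_KO, and Col6a1 to Col6a2 of 1.56 ± 0.423 and 1.64 ± 0.184 (SD, 4 libraries each). For these pairs the ratios of the groups overlapped.

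**Figure D4:**
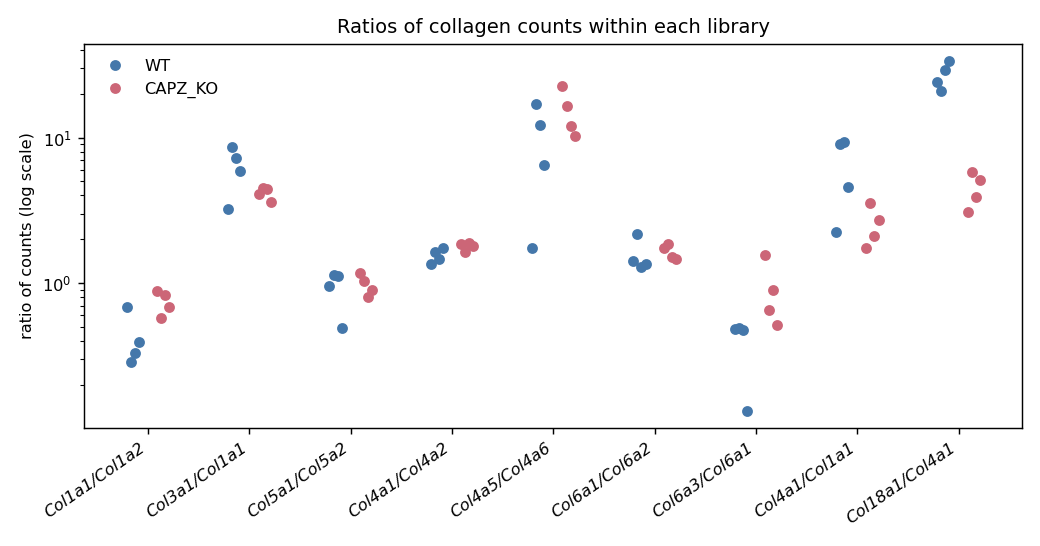
Ratios of 9 pairs of collagen counts within each library (log axis), 4 WT and 4 CAPZ_KO points per pair. The groups are apart for Col6a3/Col6a1 and Col18a1/Col4a1, whose WT ratios of 20.8 to 33.4 stand against 3.09 to 5.78, and overlap for the other 7.

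Markers of several cell types moved in the same libraries, and their part in the collagen changes was not tested. The counts of called genes in each list below stand beside 22.4% higher and 19.0% lower over all genes tested. Of 14 stellate cell and fibroblast markers, 13 were tested, of which 9 were higher and 0 lower, with the same counts in each leave-out of a library. At an adjusted p under 0.01 there were 7 higher, by upper quartile scaling 10, and under library sizes alone 13. The 14 markers summed to 154.4 to 185.5 CPM in WT and 302.9 to 437.8 in CAPZ_KO. Lrat, which makes the retinyl esters stored by stellate cells, and Acta2, the smooth muscle actin of activated ones, rose by 1.78 and 2.67 on the log2 scale (adjusted p by edgeR of 0.000727 and 0.0022). Reln, Colec11, Hand2 and Thy1 were tested and not called, at 0.34, 0.28, −0.14 and 0.62 (adjusted p = 0.266, 0.098, 0.568 and 0.143, edgeR). The list had a median of 1.27. Of 12 endothelial markers, 2 were higher and 0 lower, a share no larger than that over all genes, with sums of 493.6 to 738.7 CPM in WT and 581.4 to 866.8 in CAPZ_KO, which overlap, and a median of 0.04. Leaving out WT 1, WT 3, WT 4, CAPZ_KO 2, CAPZ_KO 3 or CAPZ_KO 4 left 1 higher, as did an adjusted p under 0.01, and without CAPZ_KO 4 there was also 1 lower. Under library sizes alone, 8 of the 12 were higher and the median was 0.65, close to the shift of all genes by 0.625.

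Vascular smooth muscle markers summed to 6.74 to 10.3 CPM in WT and 14.3 to 24.4 in CAPZ_KO, with 1 of 2 tested genes higher and 4 of 6 too scarce to test. Mesothelial markers, 5 of 5 tested, had a median of −0.88 and were called in 0 cases, but 2 were lower without CAPZ_KO 4 (median −1.44) and 1 with the replicate block. They summed to 20.6 to 67.0 CPM in WT and 8.52 to 45 in CAPZ_KO. Of 8 cholangiocyte markers 6 were higher and 0 lower, with a median of 3.16. Of these 6, Cldn4 and Cftr reached the minimum count in 0 WT libraries, with 8 and 7 counts over WT and 368 and 104 over CAPZ_KO. The biliary keratins Krt7 and Krt19 were not called, at −0.01 ± 0.535 and −0.23 ± 0.460 (SE; adjusted p = 0.994 and 0.713, edgeR). Of 7 markers of monocyte-derived macrophages 5 were higher, with a median of 2.24. Of 6 Kupffer cell markers 2 were higher, but 0 without WT 1, WT 2, WT 3, CAPZ_KO 2, CAPZ_KO 3 or CAPZ_KO 4, and 0 at an adjusted p under 0.01. Without WT 4 there was 1, without CAPZ_KO 1 there were 4, and with the replicate block 6. The Kupffer list had a median of 0.99. The sums of the cholangiocyte, macrophage and Kupffer lists went from 7.83 to 30.1 up to 50 to 83.3 CPM, from 296.0 to 462.6 up to 529.5 to 771.3 CPM, and from 469.3 to 1334 to the overlapping 986.8 to 3337 CPM. Most of the macrophage sum was Lyz2, at 305.1 ± 82.1 CPM in WT and 481.7 ± 135.5 CPM in CAPZ_KO (SD, n = 4). Lyz2 was not among the 5 called (edgeR adjusted p = 0.0522). None of the markers of the 8 lists was at 0 in all libraries.

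Of 22 genes that modify and fold collagen chains, 21 were tested, 9 were higher and 1, Mia3, was lower, beside 22.4% and 19.0% of all genes, with a median log2 fold change of 0.58. Fkbp10, a prolyl isomerase of the endoplasmic reticulum that acts on procollagen, rose from 2.28 ± 0.353 to 7.19 ± 0.571 CPM (SD, n = 4), by 1.66 ± 0.191 (SE, edgeR adjusted p = 0.000146). P4ha2, a catalytic subunit of prolyl 4-hydroxylase, rose by 1.47, P3h3, of the prolyl 3-hydroxylase family, by 1.14, and Crtap, a partner of prolyl 3-hydroxylase, by 0.97 (adjusted p = 0.000362, 0.000753 and 0.00138). Mia3, which loads procollagen into transport carriers at the endoplasmic reticulum, was at 213.5 ± 41.9 CPM (SD, n = 4) in the WT and 126.8 ± 7.83 CPM in the CAPZ_KO libraries, a log2 fold change of −0.75 ± 0.161 (SE, adjusted p = 0.00429), and of −0.13 (adjusted p = 0.506) under library sizes alone. Serpinh1, the collagen chaperone HSP47, chosen after its values were seen, had 1.08 ± 0.409 (SE, adjusted p = 0.0596). Without CAPZ_KO 3 the count of higher genes was 6, at an adjusted p under 0.01 it was 5, and under library sizes alone 16.

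Of 13 genes of procollagen processing and crosslinking, 10 were tested, 8 were higher and 1 lower, with a median of 1.37. Loxl2, a lysyl oxidase that crosslinks type IV and fibrillar collagen, rose from 5.34 ± 1.57 to 35.5 ± 8.39 CPM (SD, n = 4), by 2.74 ± 0.258 (SE, edgeR adjusted p = 5.31e-05). Lox, another crosslinking oxidase and 1 of the 8, reached the minimum count in 0 WT libraries and so was tested only through CAPZ_KO. It had 9 counts over the WT libraries and 287 over the CAPZ_KO libraries. The procollagen N-proteinases Adamts2 and Adamts14 rose by 2.08 and 3.31 (adjusted p = 6.81e-05 and 0.000275), and Adamts14 by 4.05 without WT 4 and CAPZ_KO 4, the libraries with Xist RNA. Bmp1, the C-proteinase, had −0.34 ± 0.105 (SE, adjusted p = 0.0267), but 0.29 under library sizes alone and adjusted p of 0.0543 to 0.0642 without WT 2, WT 3, CAPZ_KO 1 or CAPZ_KO 3.

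Of 10 collagen receptors, 8 were tested, 5 were higher and 0 lower, with a median of 1.04. Ddr1, a receptor tyrosine kinase of epithelia that binds collagen, rose from 3.25 ± 1.40 to 43.7 ± 11.5 CPM (SD, n = 4), by 3.75 ± 0.317 (SE, edgeR adjusted p = 3.48e-05). Mrc2, an endocytic collagen receptor, rose by 2.58 and Lair1, an inhibitory receptor of leukocytes, by 1.52 (adjusted p = 0.000471 and 0.00266). Itga2, an integrin chain and 1 of the 5, reached the minimum count in 0 WT libraries, with 6 counts over WT and 64 over CAPZ_KO. Ddr2, the relative of Ddr1 in mesenchymal cells, chosen after its values were seen, had 0.56 ± 0.212 (SE, adjusted p = 0.0556).

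Of 11 collagen-binding proteoglycans and matricellular proteins, all tested, 7 were higher and 0 lower, with a median of 1.09. Lum, lumican, rose from 9.65 ± 1.63 to 47.0 ± 9.90 CPM (SD, n = 4), by 2.28 ± 0.188 (SE, edgeR adjusted p = 2.74e-05). Bgn, biglycan, rose by 1.35, Tgfbi by 1.22 and Sparc, which binds procollagen, by 1.62 (adjusted p = 4.95e-05, 0.000111 and 0.000133). Of 11 genes of collagen breakdown and its inhibitors, 8 were tested, 5 were higher and 0 lower, with a median of 1.10. Of these 5, Mmp8, a neutrophil collagenase, reached the minimum count in 0 WT libraries, with 14 counts over WT and 97 over CAPZ_KO. The gelatinase Mmp2 rose by 2.89, the membrane-bound collagenase Mmp14 by 1.10, cathepsin K, Ctsk, by 1.52 and the inhibitor Timp2 by 0.73 (adjusted p = 0.00019, 0.00168, 0.00319 and 0.00847). No test of a difference between the lists was made.

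**Figure D5:**
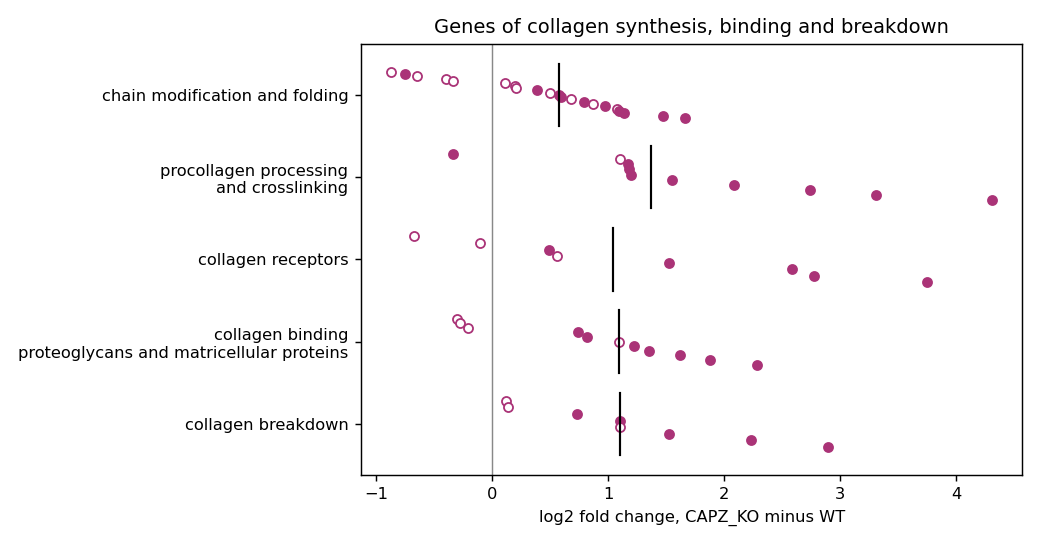
Log2 fold change of CAPZ_KO against WT of each tested gene in 5 lists of collagen synthesis, binding and breakdown; filled points reached an adjusted p under 0.05 and the black lines give the medians, 0.58, 1.37, 1.04, 1.09 and 1.10 from top to bottom. Filled points to the left of 0 are Mia3 and Bmp1.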

How the data were processed

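The data were raw read counts per gene symbol, deposited by the authors as 1 column per library and not scaled. Libraries were stranded and poly(A) selected, per the labels' protocols. The tools named, per the submitters' processing notes, are STAR 2.5.3a, bcl2fastq, edgeR, featureCounts and R 3.3.1, and the build is mm10. What annotation, strand setting and treatment of multi-mapping reads applied is not given in the sources used here, so reads in overlapping exons (22 bases of Col4a1 and Col4a2) may be divided in unknown ways. Positions and lengths came from GENCODE vM21 (GRCm38, all 44 symbols matched).

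Genes were kept by filterByExpr (minimum count 10, total 15), scaled by TMM (factors 0.774 to 0.847 in WT, 1.18 to 1.33 in CAPZ_KO) and tested over 12985 genes by the edgeR 4.0.16 quasi-likelihood test (robust, no covariate, R 4.3.3), with Benjamini-Hochberg adjustment over all of them. Every adjusted p of a gene is from edgeR unless another tool is named. CPM use the TMM library sizes. The script was tested on simulated data. Within-library ratios had 0.5 added to each count. DESeq2 1.42.0 and limma 3.58.1 served as alternatives. Chi-square over degrees of freedom was 26.7 to 146 between replicate libraries, and none were taken as duplicates. The members, lists and the rule for named genes (each called collagen, the 6 with the largest CPM per kb, up to 4 genes of each companion list with the smallest p and up to 2 called against its direction) were chosen with earlier results of these data known.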

Additional observations from a re-analysis of the deposited data

Results flagged for a closer look

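In 5 of 50 groups of 4 libraries (25 tested collagen genes in either condition), 1 library stood apart from the other 3 by a gap that, as a share of the group's whole range, was above Dixon's critical value, where chance gives about 1 in 20. CAPZ_KO 1 stood above the rest of its group in Col14a1 (105.4 CPM against 72.3 to 75), Col4a2 (108.7 against 81.0 to 83.7) and Col5a1 (40.7 against 22.9 to 24.5). WT 1 stood above the other WT libraries in Col1a1, at 17.7 CPM against 3.83 to 5.73, and CAPZ_KO 3 in Col23a1, at 1.09 CPM against 0.897 to 0.920. Col4a2, Col5a1 and Col1a1 were called with each of these libraries left out.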

How the results depend on the processing

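The 14 higher collagen genes were called under every alternative in which they were tested, namely 3 other scalings, 2 other filters, DESeq2, limma-voom, edgeR without robust dispersion, a minimum fold of 1.2 in the test, adjusted p under 0.01, the replicate block, and each library left out. Col8a1 was not tested with CPM of at least 1 in 4 libraries, which left 13. Library sizes alone gave 18 higher, the largest count. The count of lower genes, 1, was 0 under library sizes alone, a fold change of 1.2 and a threshold of 0.01, 2 by DESeq2, and 0 to 1 when a library was left out. Col18a1 then had 0.10 with library sizes and an adjusted p of 0.0637 against a fold change of 1.2. The log2 difference of Col5a1 to Col5a2 ran from −0.14 (without WT 4) to 0.26 when a library was left out.

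The replicate numbers are shared by label. Same-numbered libraries had correlations of 0.245, 0.0251, 0.0847 and 0.301 in their deviations from the group means. All of these were positive, while differently numbered libraries had correlations of −0.271 to 0.106. These values do not settle whether the numbers mark pairs, and the main test did not treat them as pairs. The SE of Col1a1 was 0.533 in the main test and 0.268 with the replicate block. With the replicate block 15 genes were higher, Col13a1 added, and 1 lower. The blocked test of the ratios, with a smallest p of 0.125 over 16 arrangements of signs, could pass none of the 9 and says nothing about them. Leaving out WT 4 and CAPZ_KO 4, with over 100 counts of Xist each, was chosen after seeing the data and gave 15 higher and 1 lower. Counts of 69 or fewer over all libraries kept 19 genes out of the test.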
